A study of Trametes cinnabarina with 16 samples.

Results

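In Pycnoporus cinnabarinus, a white-rot fungus also called Trametes cinnabarina, 7 assembled genes had an isoform that held a much larger share of their RNA in cellobiose cultures than in cultures with no energy source. They were chosen from 27990 assembled genes. Of these, 6066 had 2 or more isoforms, and 1630 also had a summed level of at least 20 TPM in each of the 3 cellobiose and 3 control libraries. TPM is a transcript level corrected for length and scaled to the same total in every library, so levels of different isoforms can be compared. A gene was taken when some isoform's lowest share of the gene's TPM in cellobiose exceeded its highest share in control by at least 20 percentage points. That difference is called the gap here, and the isoform concerned the selected isoform. The shares in cellobiose and control therefore chose these genes and are given as a description, with no test.

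All cultures were of strain PB94, whole organism, on a semi-minimal medium started from an agar cube of mycelium and grown for several days. The groups were cellobiose (3 libraries), glucose (1), maltose (3), poplar (3), switchgrass (3) and a control without an energy substrate (3), 16 libraries in all. Per the labels' protocols, the 10 libraries of the soluble sugars and the control were made with a stranded mRNA kit, while ribosomal RNA was removed with a depletion kit for the 6 libraries of the plant substrates. Preparation and plant substrate therefore cannot be told apart. Whether replicates came from different cultures is not in the labels, and the p-values below therefore reflect only library-to-library spread, which may be technical. The deposited tables are a pair that hold identical values in 16 of 16 columns, under different names in all of them (0 of 16 carry the same name). Names here follow the table used in the rule. Under the other table's names the libraries called cellobiose here would be poplar, and those called control here would be switchgrass. Those called poplar here would be control, and those called switchgrass here would be cellobiose. The glucose library here would be the first maltose library, and the third maltose library here would be glucose. Statements on every substrate below therefore rest on the names used.

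A fungal gene can give several transcripts through alternative splicing, which in fungi is mostly retention of an intron, or through other start or end sites. Different transcripts of a gene can encode different proteins or none, so a gene can change its product without changing its total RNA. Cellobiose is the disaccharide released by cellulases from cellulose, and in many wood-decay fungi it or its derivatives act as signals for the enzymes of cellulose breakdown. In an assembly made without a genome, the isoforms of a gene are sequences that the assembler placed in one group. Such a group can hold splice variants, alleles or closely related gene copies, and which of these the isoforms below are was not tested. The identifiers are labels of the assembly without gene names, and they matched none of the 10441 reference genes (0 matches). That comparison was of names only and does not show that the genes are absent from the reference. With no gene names, no function can be given for any of the 7 genes.

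The 7 genes made up 0.429% of the 1630 that could meet the rule. Over the 1630 genes the largest gap of any isoform had a median of -1.16 percentage points (quartiles -3.63 and 0.395), which means that cellobiose and control shares usually overlapped. The gap was above 0 in 482 genes, at least 5 points in 96, at least 10 in 31 and at least 30 in 2. The 3 genes just inside the threshold were TR12501__c0_g1 at 20.7, TR7986__c0_g1 at 20.4 and TR18091__c1_g1 at 20.4 points. The 3 just outside were TR18111__c1_g1 at 19.6, TR3336__c5_g2 at 17.9 and TR2628__c1_g2 at 16.3 points. The same rule turned round, for an isoform lower in cellobiose, also took 7 genes (0.429%), of which 4 were among the 7 described here. In a gene with a pair of isoforms the fall of one mirrors the rise of the other. This fixed the overlap in advance for TR6788__c1_g1, TR18917__c1_g1 and TR12501__c0_g1, and TR11251__c1_g1 was the remaining gene. Applied to other substrates the rule took 14 of 167 genes as higher in poplar than in control (8.38%) and 11 as lower (6.59%), and 11 of 439 as higher in switchgrass (2.51%) and 13 as lower (2.96%). In each of these 2 of the 7 genes could enter and 0 met it. In maltose against control it took 0 of 139 genes as higher and 0 as lower (0%), and 0 of the 7 genes could enter. Without the third maltose library it took 5 of 1636 genes as higher and 5 as lower (0.306% each). All 7 genes could enter there, and TR18917__c1_g1 alone of them met it.

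**Figure D1:**
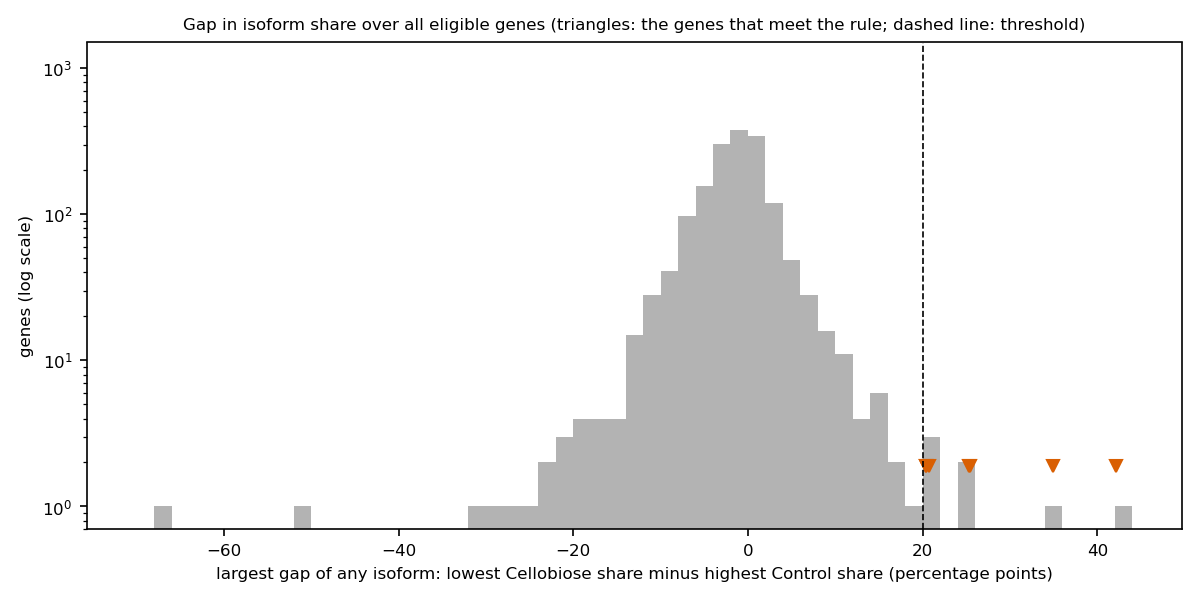
Number of genes (log scale) by the largest gap of any of their isoforms, the lowest cellobiose share minus the highest control share in percentage points, over 1630 genes. Triangles mark the 7 genes at or beyond the dashed line at 20 points, with 42.1 as the largest; the bulk of genes lies around the median of -1.16.

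The 7 genes had 2 to 5 isoforms, 21 in all, and were of ordinary level. Their median level over the cellobiose and control libraries was 52.4 TPM (range 35.8 to 159), against 46.9 TPM for the 1630 genes. In 3 of the 7 the isoform with the largest share was one and the same in all 3 cellobiose libraries and another one in all 3 control libraries. These were TR6788__c1_g1, TR11251__c1_g1 and TR18917__c1_g1. The rule used these same shares, and changes of the leading isoform were not counted over the 1630 genes. Within a group, the widest range of any isoform's share between the 3 libraries was taken for each of the 1630 genes. Its median was 8.89 points in cellobiose and 6.78 points in control. It was over 20 points in 180 genes in cellobiose and in 90 in control. The rule set the gaps of the 7 genes at 20 points or more, so their size against these ranges is no test. Between the cellobiose libraries, the selected isoform's share ranged more widely than the gap in TR11251__c1_g1 (38.4 against 25.4 points) and TR18917__c1_g1 (29.8 against 25.3). In all others of the 7 that range was smaller than the gap.

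TR6788__c1_g1 had the largest gap, 42.1 points, and a pair of isoforms. Isoform i2 held 62.9%, 59.5% and 62.0% of the gene's TPM in the cellobiose libraries, against 17.4%, 14.4% and 15.0% in the control libraries. Its share was 61.5% ± 1.75 in cellobiose and 15.6% ± 1.60 in control (SD, n = 3 each), so the libraries of each group lay close together and the groups far apart. The level of i2 was 142, 118 and 142 TPM in cellobiose, against 17.6, 15.6 and 13.5 TPM in control, 8.59-fold higher. The level of i1 was 83.4, 79.9 and 87.3 TPM in cellobiose, against 83.7, 93.2 and 76.0 TPM in control, and here the groups overlapped. The whole gain of the gene was thus in i2, and its total was 217 ± 17.4 TPM in cellobiose and 99.9 ± 9.77 TPM in control.

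The other substrates did not bring i2 of TR6788__c1_g1 near its cellobiose share. Its share was 27.1% with glucose, 19.5% and 24.9% in maltose libraries 1 and 2, all above the 3 control libraries. On the plant substrates it held less than in any control library. Its share was 8.11%, 5.71% and 1.22% in the poplar libraries and 3.45%, 2.40% and 10.002% in those of switchgrass, each with the gene at 20 TPM or more. Its level was 1.46 to 5.29 TPM in poplar and 1.35 to 6.04 TPM in switchgrass. In the same libraries i1 was at 25.4 to 118 TPM in poplar and 54.4 to 86.5 TPM in switchgrass, so the isoform that was level between cellobiose and control was also the one still abundant on plant material.

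The assembler gave other genes the same cluster number as TR6788__c1_g1, and some of them were also much higher in cellobiose than in control. TR6788__c2_g1 was at 286, 273 and 269 TPM in cellobiose, against 38.6, 24.5 and 28.8 TPM in control, 9.01-fold higher. TR6788__c3_g1 was at 203, 170 and 143 TPM in cellobiose, against 16.6, 17.04 and 18.7 TPM in control, 9.86-fold higher. In the glucose library these genes were at 46.9 and 27.1 TPM, and in the 6 plant libraries TR6788__c2_g1 was at 1.56 to 19.6 TPM and TR6788__c3_g1 at 0 to 8.38 TPM. In maltose libraries 1 and 2 TPM was 23.4 and 26.0 for TR6788__c2_g1, inside or below the control range, and 12.9 and 11.2 for TR6788__c3_g1, below all control values, whereas i2 of TR6788__c1_g1 was at 16.1 and 19.1 TPM there. TR6788__c1_g2 differed the other way, at 33.7, 31.9 and 29.7 TPM in cellobiose, against 43.9, 46.3 and 48.2 TPM in control. TR6788__c0_g1 was at 21.1, 18.8 and 14.2 TPM in cellobiose, against 0, 0 and 1.70 TPM in control. TR6788__c0_g2 had means of 0 TPM in cellobiose and 0.313 TPM in control. These genes were named for their shared cluster number, with their values seen, and their folds are in the contrast of the rule and were not tested.

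TR18091__c1_g1 was the other gene in which the selected isoform was higher and the rest of the gene was nearly level. Its isoform i1 held 32.0%, 29.2% and 36.6% of the TPM in cellobiose, against 8.82%, 1.79% and 0.826% in control, a gap of 20.4 points. The level of i1 was 23.1, 17.8 and 22.8 TPM in cellobiose, against 3.77, 0.67 and 0.32 TPM in control. The sum of i2 and i3 was 43.9 ± 4.77 TPM in cellobiose and 38.1 ± 1.13 TPM in control, 1.15-fold higher. The isoform was thus nearly missing from control and became 1 of 3 isoforms of similar level in cellobiose.

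Glucose carried TR18091__c1_g1 further than cellobiose did. In the glucose library i1 was at 63.2 TPM and held 59.3% of the gene, above all 3 cellobiose libraries, while i2 and i3 were at 21.6 and 21.9 TPM. With maltose i1 held 23.6% and 15.9% (libraries 1 and 2), between cellobiose and control. The gene was under 20 TPM in all 6 plant libraries (4.15 to 12.8 TPM), where its shares rest on little signal. The 3 other assembled genes with this cluster number were also higher in cellobiose, with means of 29.8 against 12.9 TPM for TR18091__c0_g1, 69.5 against 24.0 TPM for TR18091__c0_g2 and 24.2 against 4.48 TPM for TR18091__c1_g2 in cellobiose and control.

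**Figure D2:**
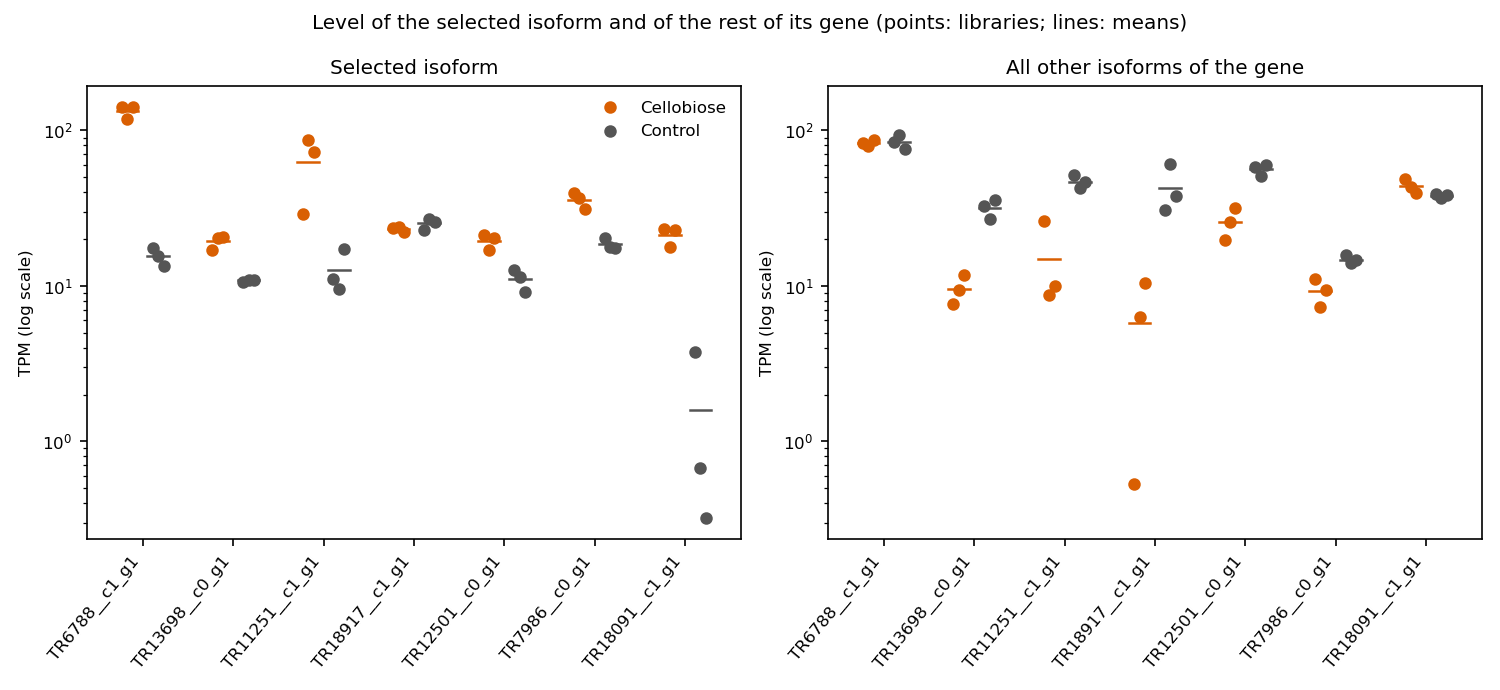
TPM (log scale) of the selected isoform (left) and of the sum of the gene's other isoforms (right) in the 3 cellobiose and 3 control libraries of each gene, with means as lines. In TR6788__c1_g1 the left points differ 8.59-fold and the right points overlap, while in TR18917__c1_g1 the left points overlap and the right points are 7.43-fold lower in cellobiose.

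In TR18917__c1_g1 the reverse held: the selected isoform was level and its partner was lower. Isoform i1 was at 23.6, 23.8 and 22.2 TPM in cellobiose, against 22.9, 27.1 and 25.7 TPM in control, and the groups overlapped. Isoform i2 was at 0.53, 6.33 and 10.5 TPM in cellobiose, against 30.7, 60.4 and 37.7 TPM in control, 7.43-fold lower on the means. The share of i1 was therefore 97.8%, 79.0% and 68.0% in cellobiose, against 42.7%, 31.0% and 40.6% in control, and the gene total was 29.0 ± 4.40 TPM in cellobiose and 68.2 ± 17.4 TPM in control. The cellobiose shares were spread over 29.8 points, more than the gap of 25.3 points.

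TR18917__c1_g1 was the gene in which every sugar gave a similar picture. Isoform i1 held 87.2% with glucose, 71.7% and 67.9% with maltose (libraries 1 and 2), where i2 was at 3.77, 8.98 and 8.52 TPM. It was also the only one of the 7 genes that met the rule for maltose against control when the third maltose library was left out (5 of 1636 genes, 0.306%). That comparison uses the same control libraries. Its cluster partners TR18917__c2_g1 and TR18917__c3_g1 were at means of 11.4 and 5.93 TPM in cellobiose and 27.4 and 19.4 TPM in control.

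In the other 4 genes the selected isoform was higher and the rest of the gene lower. TR13698__c0_g1, with 4 isoforms, had a gap of 34.9 points. Its isoform i2 was at 17.1, 20.4 and 20.6 TPM in cellobiose, against 10.6, 10.98 and 10.95 TPM in control, 1.79-fold higher. The other isoforms together were at 9.61 ± 2.04 TPM in cellobiose and 31.7 ± 4.26 TPM in control, 3.30-fold lower. Isoform i2 thus held 69.1%, 68.3% and 63.8% in cellobiose, against 24.5%, 28.8% and 23.6% in control.

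The shares of the remaining isoforms of TR13698__c0_g1 were less steady between replicates than that of i2. In the control libraries i1 held 26.6%, 5.83% and 34.3%, i3 held 30.6%, 32.9% and 24.6%, and i4 held 18.3%, 32.4% and 17.5%. Isoform i3 led in the first and second control libraries and i1 in the third. In the other sugars i2 held 75.2% in the glucose library and 26.8% and 58.0% in the first and second maltose libraries, which disagreed with each other. In the 4 plant libraries with the gene at 20 TPM or more, i2 ranged from 0% in the first switchgrass library to 41.4% in the third poplar library. Its cluster partners TR13698__c1_g1 and TR13698__c2_g1 were at means of 42.3 and 7.40 TPM in cellobiose and 33.8 and 4.15 TPM in control.

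TR11251__c1_g1 had the largest difference in mean share but not the largest gap. Isoform i1 held 52.5%, 90.9% and 87.9% in cellobiose, against 17.6%, 18.4% and 27.1% in control, which is 77.1% ± 21.3 in cellobiose and 21.1% ± 5.28 in control. The first cellobiose library stood far below the other two and set the gap of 25.4 points. Isoform i2 was its counterpart, at 17.9, 2.69 and 2.21 TPM in cellobiose, against 41.6, 34.9 and 42.7 TPM in control. Isoform i3 was between 3.77 and 10.1 TPM over these libraries.

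For TR11251__c1_g1 glucose and maltose resembled control more than cellobiose. Isoform i1 held 26.6% in the glucose library and 25.5% and 36.6% in the first and second maltose libraries, of which the last alone lay above the control range. In the third poplar library, the only plant library with this gene at 20 TPM or more, i1 held 86.5% at a level of 59.2 TPM. In the first and second poplar libraries, with the gene at 9.88 and 2.93 TPM, i1 was listed at 0. In the 3 switchgrass libraries, with the gene at 9.59, 18.7 and 9.54 TPM, i1 held 0%, 86.5% and 100%. Shares below the floor rest on little signal. The gene total overlapped between cellobiose (77.9 ± 20.6 TPM) and control (59.5 ± 6.47 TPM). Its cluster partner TR11251__c0_g1 was at means of 12.8 TPM in cellobiose and 3.48 TPM in control.

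TR12501__c0_g1 had a pair of isoforms and a gap of 20.7 points. Isoform i2 held 52.0%, 39.8% and 39.1% in cellobiose, against 17.9%, 18.3% and 13.3% in control. Its level was 19.6 ± 2.23 TPM in cellobiose and 11.05 ± 1.73 TPM in control, and i1 was at 25.8 ± 6.05 TPM in cellobiose and 56.1 ± 4.71 TPM in control. Isoform i2 held 25.6% in the glucose library and 14.2% and 24.8% in the first and second maltose libraries. On plant substrates it nearly disappeared while i1 remained. Its share was 5.36%, 0% and 3.81% in poplar and 0%, 0% and 5.19% in switchgrass, with i1 at 21.8 to 72.8 TPM in these 6 libraries.

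TR7986__c0_g1, with 5 isoforms, differed from the others in that its selected isoform led in control as well. Isoform i5 held 78.2%, 83.3% and 76.9% in cellobiose, against 56.5%, 56.1% and 54.6% in control, a gap of 20.4 points. Its level was 35.9 ± 4.38 TPM in cellobiose and 18.6 ± 1.57 TPM in control, while the other 4 isoforms together were at 9.27 ± 1.88 TPM in cellobiose and 14.7 ± 0.890 TPM in control. The share was 72.5% in the glucose library and 65.5% and 74.2% in the first and second maltose libraries, each between the cellobiose and the control values. In the second switchgrass library, the only plant library with the gene at 20 TPM or more, i5 held 53.8%.

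**Figure D3:**
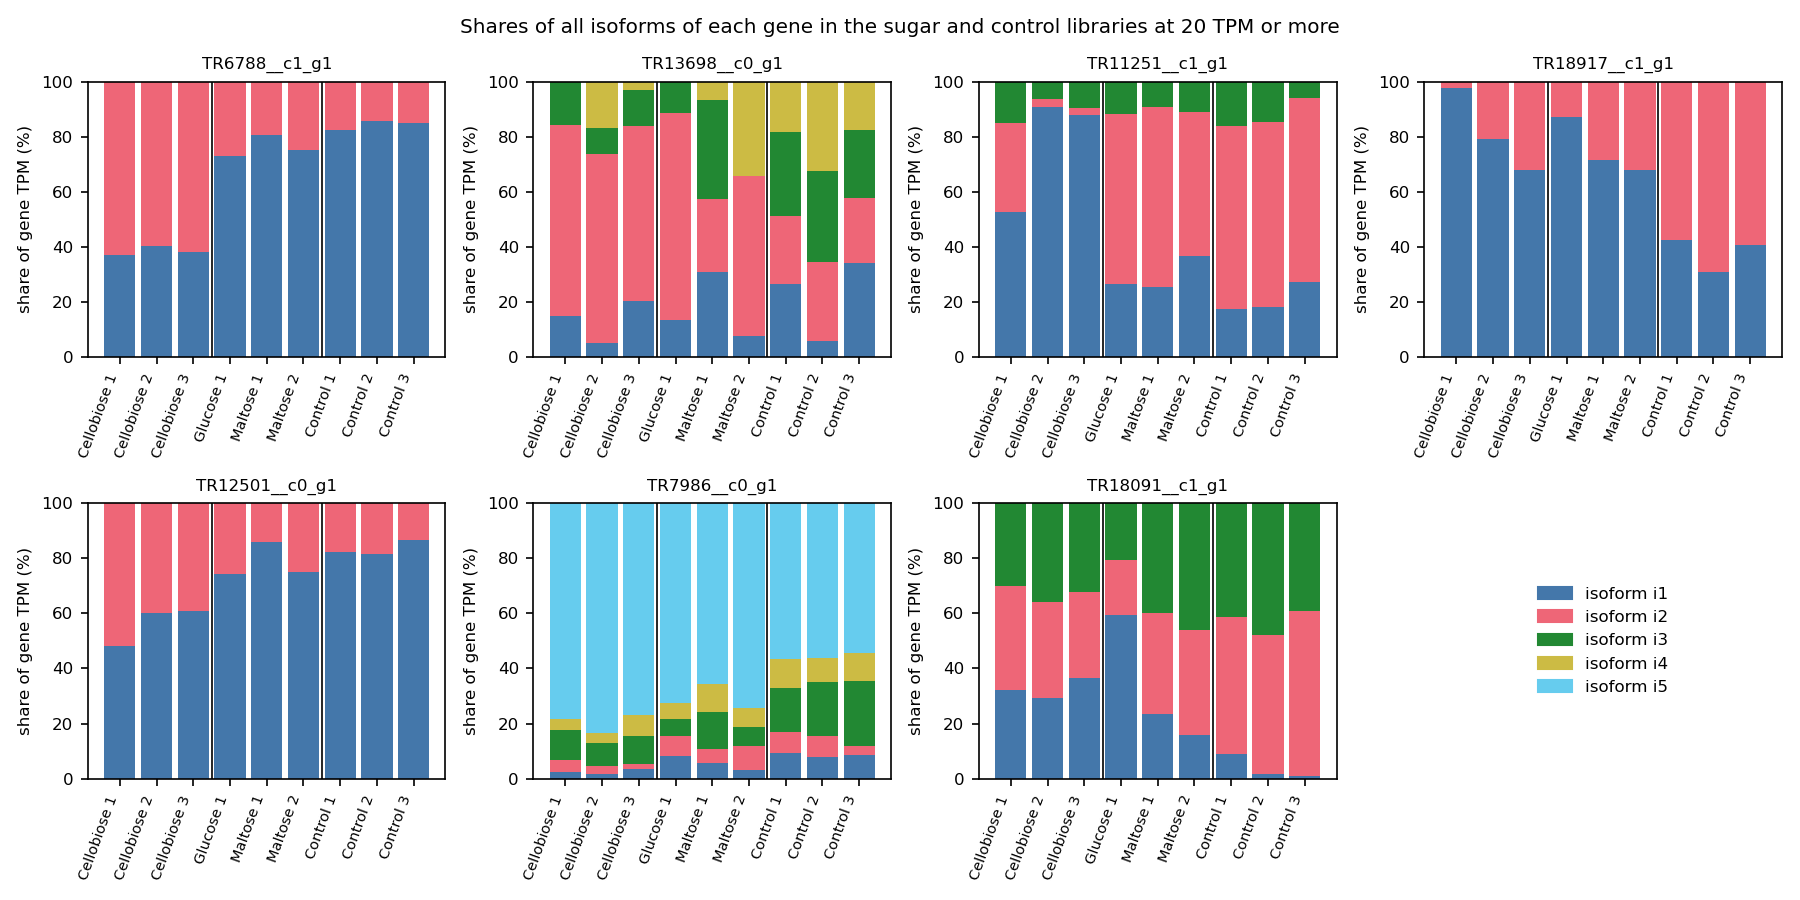
Share of gene TPM (%) held by every isoform of the 7 genes in the 3 cellobiose, the glucose, the first and second maltose and the 3 control libraries, with vertical lines between cellobiose, the other sugars and control. In TR18917__c1_g1 the glucose and maltose bars resemble the cellobiose bars, and in TR6788__c1_g1 they resemble the control bars.

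Over the 7 genes, the selected isoform's TPM did not overlap between cellobiose and control in 6 (31.1% of the 5562 isoforms of the 1630 genes, and 37.9% of the 1630 isoforms with the largest gap of their gene), the rest of the gene did not overlap in 6, and the gene total did not overlap in 6 (46.7% of the 1630 genes). The rest of the gene, taken without the isoform of largest gap, did not overlap in 43.5% of the 1630 genes. The rule chose the 7 genes by shares in these same libraries, which favours such separation, so these counts are a description and no test. The gene total was higher in cellobiose in 4 genes and higher in control in 3, with ratios of cellobiose to control from 0.425 to 2.18. The 1630 totals had a median ratio of 0.993 for cellobiose over control (quartiles 0.825 and 1.19). A factor that scales a whole library cancels in a share, and scaling by the median of ratios changed the cellobiose and control libraries by a ratio of 1.004 only.

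The glucose library and the first and second maltose libraries were not used by the rule, and all 7 genes were at 20 TPM or more in each of them. Of these 21 values of the selected isoform's share, 17 lay above all control libraries, 4 lay within the control range and 0 below it. At or above the lowest cellobiose share were 4 of the 21, namely TR13698__c0_g1 and TR18091__c1_g1 in glucose, and TR18917__c1_g1 in glucose and the first maltose library. For the 24 genes with a gap of 10 to 20 points, 46 of 67 such values (68.7%) lay above control and 4 below it, and for all 1630 genes the figures were 39.9% above and 16.1% below. An isoform chosen for low control shares tends to lie above them elsewhere, so these shares are no test of an effect of glucose or maltose.

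**Figure D4:**
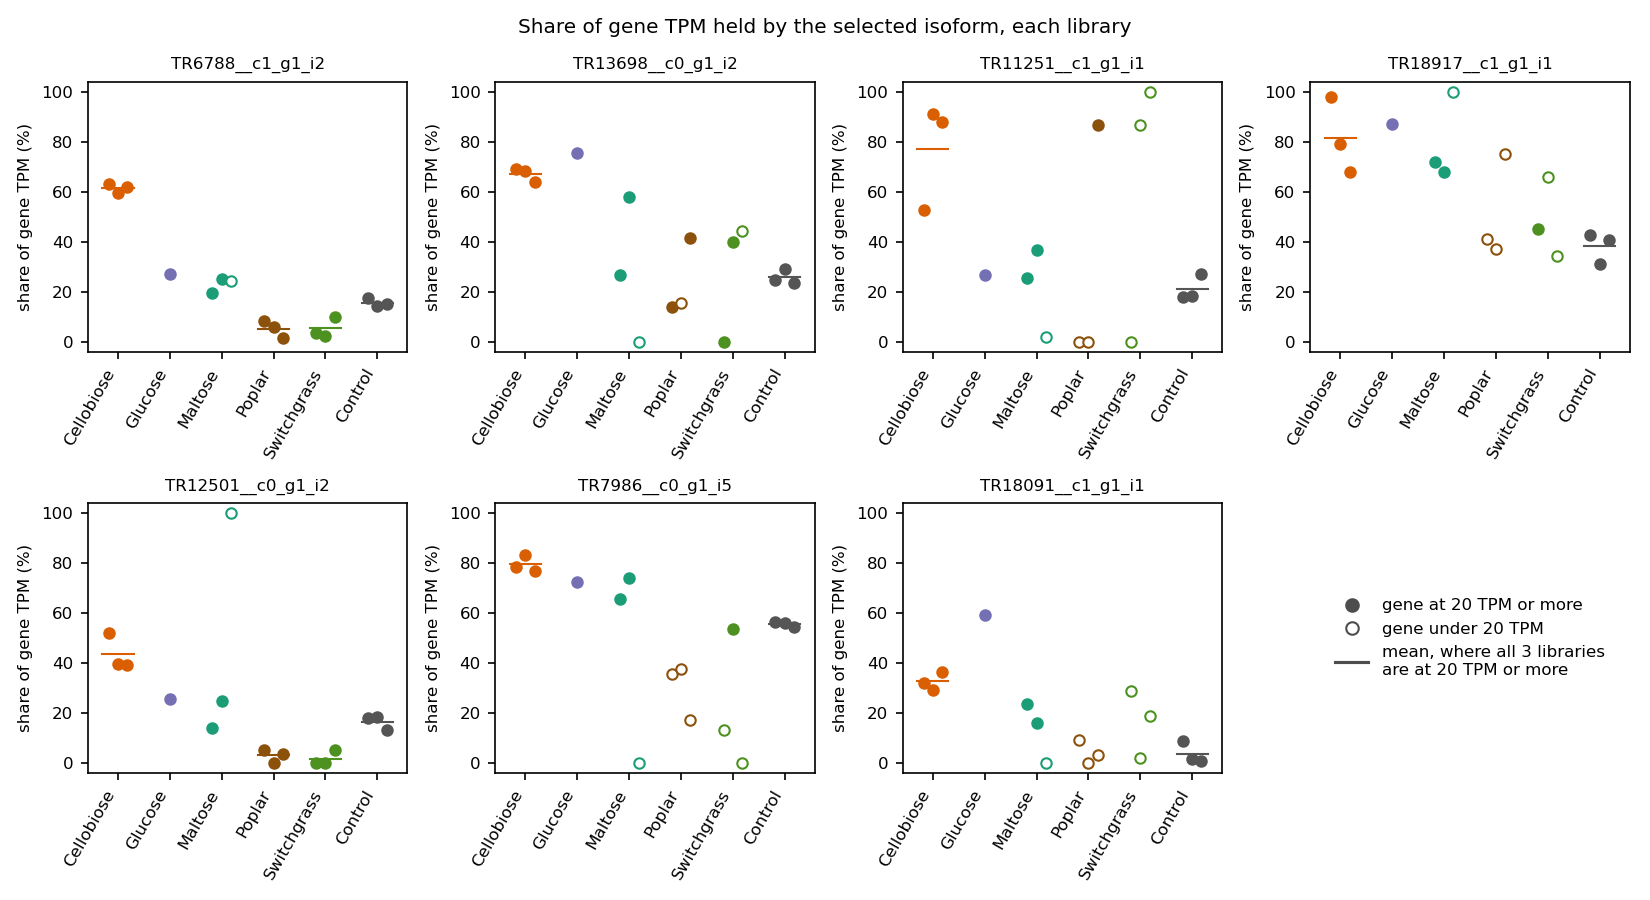
Share of gene TPM (%) held by the selected isoform of each of the 7 genes in every library, by group. Filled points are libraries with the gene at 20 TPM or more and open points those below it; horizontal lines are means of groups with filled points only. The cellobiose points lie above all control points in every panel, as the rule requires, and in TR6788__c1_g1 and TR12501__c0_g1 all 6 plant libraries lie below all control libraries.

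The plant libraries and the third maltose library limited what could be seen. In the third maltose library 0 of the 7 genes reached 20 TPM (0.27 to 7.32 TPM), against 129 of the 1630 genes. The 10 most abundant genes of that library held 83.7% of its TPM. In the plant libraries 2 to 4 of the 7 genes reached 20 TPM, against 149 to 1013 of the 1630 genes. The 10 most abundant genes held 25.6% to 75.3% in the plant libraries, against 6.57% to 12.7% in the other libraries. At 20 TPM or more there were 19 values of the selected isoform's share in plant libraries, of which 15 lay below all control libraries, 4 above and 0 within the control range. Over the 1630 genes, the isoform with the largest gap gave 4008 such values, of which 31.3% lay below all control libraries and 47.3% above, and for the 24 genes with a gap of 10 to 20 points it was 28 of 78 below (35.9%). The control shares were used by the rule, so these counts are a description. Of the 15, 12 came from TR6788__c1_g1 and TR12501__c0_g1.

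Shares were tested between groups that the rule did not use, over every isoform of genes with 20 TPM or more in each library compared, with limma on the log2 ratio of an isoform to the rest of its gene. In switchgrass against poplar, which share a preparation, 2 of the 7 genes could be tested. The log2 ratio differed by 0.09 ± 0.77 (SE, adjusted p = 0.974) for i2 of TR6788__c1_g1 and by -0.63 ± 0.60 (adjusted p = 0.873) for i2 of TR12501__c0_g1. No isoform was called among the 599 tested (limma, 0%; 28 at an unadjusted p under 0.05). The width of these errors leaves room for differences of more than 2-fold in the ratio.

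In poplar against maltose and switchgrass against maltose 0 of the 7 genes could be tested, because of the third maltose library; 0 of 122 (0%; 15 at an unadjusted p under 0.05) and 5 of 198 isoforms (2.53%) were called. Without that library TR12501__c0_g1 and TR6788__c1_g1 could be tested, and i2 of both was lower on plant material. In poplar against maltose the log2 ratio of i2 of TR12501__c0_g1 fell by 2.15 ± 0.47 on the log2 scale (limma, adjusted p = 0.0447), lower in 3 of 3 poplar libraries than in both maltose libraries. With no floor on the TPM and all 3 maltose libraries its adjusted p was 0.331. For i2 of TR6788__c1_g1 the difference was -2.32 ± 0.79 (adjusted p = 0.120). In that fit 65 of 476 isoforms were called (13.7%). In switchgrass against maltose the differences were -2.78 ± 0.69 for TR12501__c0_g1 (adjusted p = 0.143) and -2.23 ± 0.59 for TR6788__c1_g1 (adjusted p = 0.146), with 6 of 1420 isoforms called (0.423%). These contrasts also compare preparations.

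As deposited, mean gene totals of the 7 genes were below control in poplar, switchgrass and maltose. Control totals were the floor and the denominator of the shares that chose these genes, so the tests against control are not independent of the choice and support nothing about it. In poplar the total of TR18917__c1_g1 was 15.6, 6.13 and 13.3 TPM, against 53.6, 87.5 and 63.4 TPM in control, and the groups did not overlap. This gene was chosen with a high i2, and so a high total, in control. Its log2 difference on the log2(TPM + 1) scale was -2.51 ± 0.71 (limma, adjusted p = 0.0309), and 1 of the 7 genes was called, against 18% of the 1630 genes and 10.8% of all genes tested. The call ended when any 1 control library or the first or second poplar library was left out (limma, adjusted p = 0.0723 to 0.134), with a pseudocount of 0.1 (0.0542) and with scaling by the median of ratios (-0.81, adjusted p = 0.243). A fit to poplar and control alone called TR18917__c1_g1 (limma, adjusted p = 0.0133) and TR18091__c1_g1 (0.0180), against 50.7% of the 1630 genes. In the fit to all groups without the third poplar library, TR11251__c1_g1 (limma, adjusted p = 0.0324) was called beside TR18917__c1_g1 (0.0332). That fit called 3399 of all 23981 genes tested. The median log2 difference of the 7 genes was -1.69, against -1.93 over the 1630 genes and -0.74 over all 23981 tested, so the 7 genes lay near the other genes with the same floor in control.

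In switchgrass 0 of the 7 totals were called (limma, 3 at an unadjusted p under 0.05: TR11251__c1_g1, TR18917__c1_g1 and TR18091__c1_g1), against 5.64% of the 1630 genes and 7.34% of all, with a median log2 difference of -1.13 in the 7 and -1.34 in the 1630. An unadjusted p under 0.05 was also reached by 450 of the 1630 genes and 6142 of all 23981 (limma). A fit to switchgrass and control alone called those 3 totals lower (limma, adjusted p = 0.00736, 0.0110 and 0.00875), against 52.5% of the 1630 genes. In maltose 0 were called (limma, 2 at an unadjusted p under 0.05: TR18917__c1_g1 and TR12501__c0_g1), against 0% of the 1630 and 0.00417% of all, with medians of -1.57 and -1.32. There 107 of the 1630 genes and 1521 of all 23981 had an unadjusted p under 0.05 (limma). Without the third maltose library the maltose median of the 7 genes was -0.32, and 0 were called (0.0613% of the 1630 genes and 3.95% of all). In that fit 5 totals were called lower in poplar (74.4% of the 1630 genes called, 35.1% of all) and 3 in switchgrass (45.8% and 28.5%). With scaling by the median of ratios the medians of the 7 genes were -0.02 in poplar, -0.03 in switchgrass and -0.27 in maltose, 3, 3 and 2 of them changed sign, and 1 total was called, that of TR6788__c1_g1, higher in poplar by 1.02 on the log2 scale (limma, adjusted p = 0.0231). Over all genes tested, 2643 were called higher and 1205 lower in poplar under that scaling, against 531 and 2063 as deposited, and 2401 and 1215 in switchgrass, against 624 and 1137. Under that scaling 17.4% of the 1630 genes were called in poplar, 16% in switchgrass and 0% in maltose. It moved the median of all genes from -0.74 to 0.22 in poplar, from -0.58 to 0.09 in switchgrass and from -0.61 to -0.06 in maltose. The direction of 3 of the 7 totals on each plant substrate thus depended on the scaling, which cannot change a share.

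**Figure D5:**
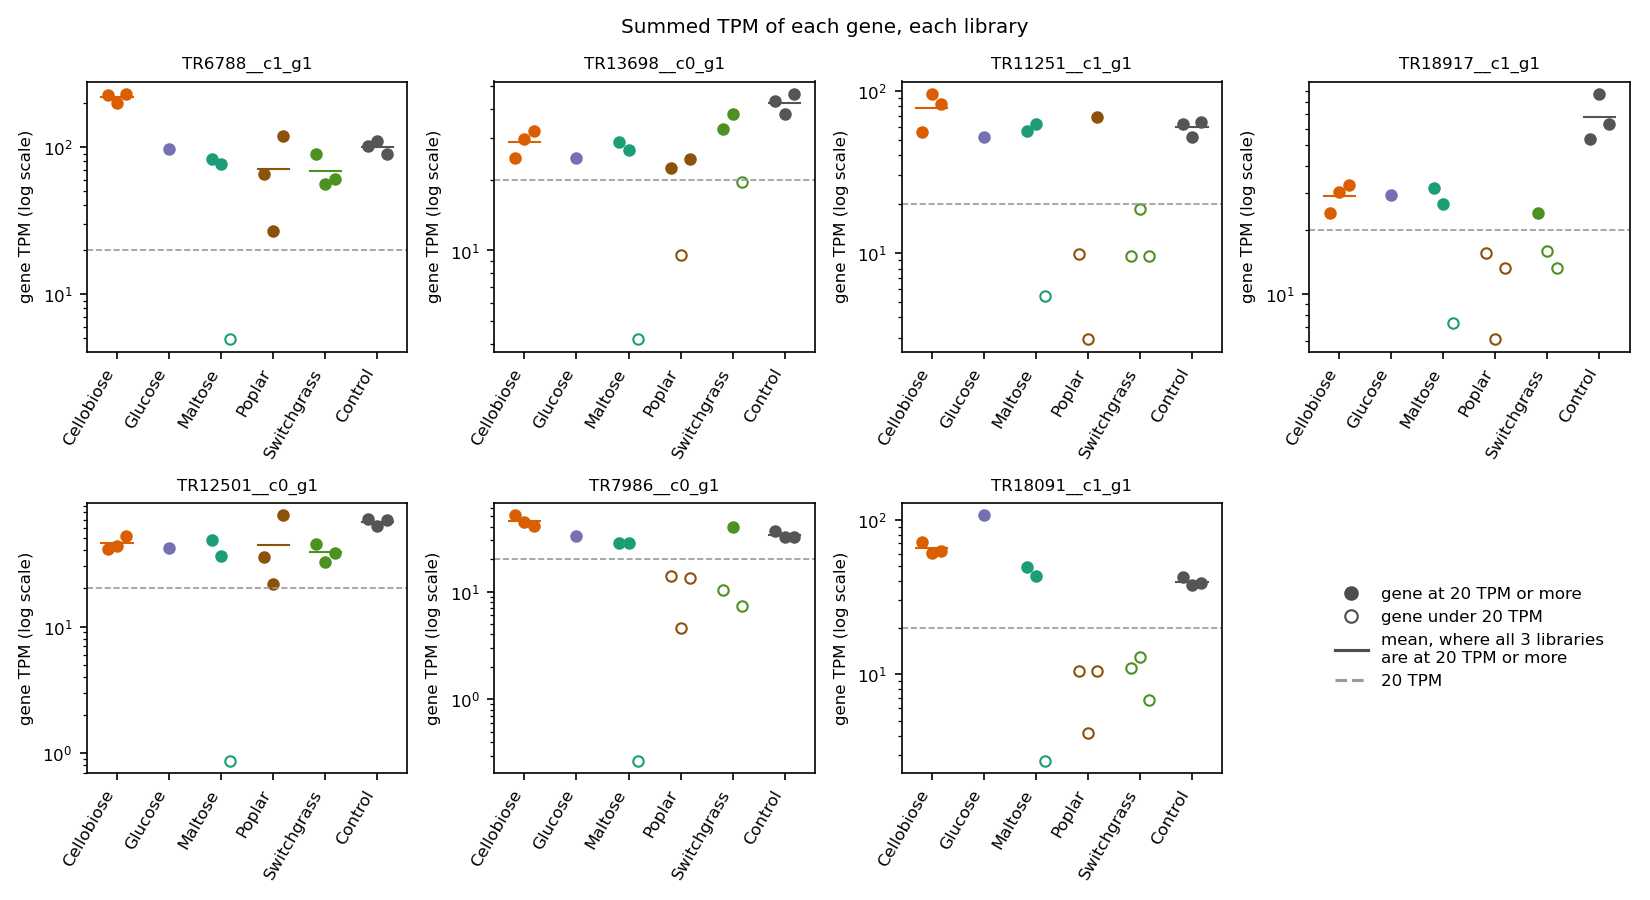
Summed TPM (log scale) of each of the 7 genes in every library, by group, with the floor of 20 TPM as a dashed line and open points below it. The third maltose library lies below the floor in all 7 panels, and TR18917__c1_g1 is lower in every sugar and plant library than in all 3 control libraries.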

How the data were processed

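The authors used RSEM, per the submitters' processing notes. Neither its version nor the assembler is given in the sources used here. The deposited values cover 45286 isoforms and were read as TPM, also in the table whose name speaks of estimated counts, because each column sums to 1000000 within 0.87. Sequencing depth cannot be recovered from TPM and is unknown here, so values carry no counting interval. The members and tests were chosen with earlier results of these data known.

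Isoforms were summed to genes by identifier, and shares computed per library. Shares between groups not used to choose genes were tested with limma (3.58.1, R 4.3.3) on log2((isoform TPM + 1)/(rest of gene TPM + 1)), with a trend on gene level, over the libraries of the groups compared. In a gene with a pair of isoforms these are mirror images. Gene totals were tested with limma on log2(TPM + 1) over 16 libraries, in genes with 1 TPM in at least 3 libraries. Benjamini-Hochberg adjustment covered all features tested; calls were at an adjusted p under 0.05. The scripts were run on simulated normal values with large planted differences between switchgrass and poplar. This checked the direction of the estimates and does not show how smaller differences would be found. All 7 genes are named; neighbours of the threshold were the 3 nearest.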

Additional observations from a re-analysis of the deposited data

How the results depend on the processing

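The 7 genes depended on the thresholds of the rule: there were 14 with a floor of 10 TPM, 2 with 50 TPM, 31 with a gap of 0.1, 2 with a gap of 0.3, and 19 with a difference of mean shares of 0.2 (chosen after the data were seen). Leaving out each library gave 8 to 11 (11 without the second cellobiose library), and the second table's column names gave 0. The same 7 genes stayed in each time a library was left out. This was fixed in advance, since leaving out a library can only widen a gap and ease the floor. Share calls in poplar against maltose were 0, and 17 with a floor of 5 TPM, 7 with none, 3 with an arcsine scale and 0 to 65 leaving out each library (65 without the third maltose library). In switchgrass against maltose they were 5, and 3 with a pseudocount of 0.1, 3 with a floor of 5 TPM, 1 with none, 0 with the arcsine scale and 0 to 6 leaving out each library (0 without the first maltose or any switchgrass library, 1 without the second maltose library). In switchgrass against poplar they were 0 in every alternative run; the difference for TR6788__c1_g1_i2 changed sign without the third poplar library (-0.66) and without the third switchgrass library (-0.41), in a range of -0.66 to 0.50 leaving out each library.

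Gene totals called in poplar against control numbered 2594, and 6337 in a fit to those groups alone, 651 to 3399 leaving out each of their libraries (651 to 876 without any 1 control library or the first or second poplar library) and 8424 without the third maltose library. In switchgrass they numbered 1761, and 6282, 656 to 1628 (656 to 871 without any 1 control library or the first switchgrass library), 6843 and, with median-of-ratios scaling (chosen after the data were seen), 3616. In maltose there was 1, and 0 with no filter, 0 in a fit to those groups alone, 10 with scaling and 0 to 948 leaving out each library (0 without any 1 control library or the first maltose library, 948 without the third). Scaling turned the sign for TR6788__c1_g1 (1.02), TR13698__c0_g1 (0.47) and TR12501__c0_g1 (0.97) in poplar, for the same genes in switchgrass (0.59, 0.60 and 0.34), and for TR11251__c1_g1 (0.22) and TR18091__c1_g1 (0.25) in maltose, the last also without the third maltose library (0.22, in a range of -1.65 to 0.22). The cause of these changes was not tested.

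Replicate numbers did not pair the libraries, since in no contrast were the correlations of deviations of all 3 same-numbered pairs over 0.1. With a replicate block the calls were 0 in poplar against maltose, 0 in switchgrass against maltose and 0 in switchgrass against poplar for shares, and 1987, 1568 and 0 for gene totals in poplar, switchgrass and maltose. The block also ended the call of TR18917__c1_g1 in poplar (limma, adjusted p = 0.0542). Without the block this was the only total of the 7 genes called in the fits to all libraries as deposited. The unknown depth and the few genes of 20 TPM or more in the plant libraries and the third maltose library limit which shares could be compared.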

Other observations

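TR18111__c1_g1, the gene just outside the rule, was among the 3 genes with an isoform that was lower in cellobiose by the same rule and no isoform that met it as higher. Its leading isoform i2 held 56.3%, 60.8% and 51.6% in cellobiose, against 89.9%, 91.1% and 93.1% in control. The level of i2 was 47.2, 21.5 and 24.5 TPM in cellobiose, against 151, 138 and 160 TPM in control, and 251 TPM in the glucose library. Isoform i1 was at 30.1, 9.61 and 14.1 TPM in cellobiose, against 12.7, 10.4 and 8.70 TPM in control. In the glucose library i2 held 79.7%, below all control libraries and above all cellobiose libraries. There i1 was at 46.9 TPM and held 14.9%, against 5.04% to 7.55% in control. This gene was described after its values were seen.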
